A study of Mus musculus with 6 samples.

Results

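Proteoglycan, heparan sulfate and hyaluronan genes are described here in cultured cells from the mouse aorta that were exposed to lipopolysaccharide (LPS), a cell wall component of Gram-negative bacteria. The group holds 37 genes, chosen by name as core proteins, chain-building enzymes, chain-editing enzymes and hyaluronan genes, of 54532 genes in the count table. All 37 were found, and 36 of them had enough counts to be among the 14508 genes tested. The exception was Extl1, an exostosin-like gene, with 0, 0 and 8 reads in LPS 1, 2 and 3, against 1, 0 and 0 reads in Vehicle 1, 2 and 3.

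RNA was measured by bulk sequencing in cultures of wild-type male mouse cells, which the labels call endothelial and assign to the aorta; no age or strain is given. The LPS group is 3 libraries of cells given LPS for 8 h at a dose of 500 ng/mL. The Vehicle group is 3 libraries of cells kept for the same 8 h in starvation medium without it. Each of 3 cell isolations gave 1 library to each group, and the number of a library is that of its isolation. Values given for 3 libraries stand in the order of isolations 1, 2 and 3. The comparison asks which of these genes differ in RNA level between cells with LPS and cells without it.

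Heparan sulfate chains are built on the serine residues of core proteins such as syndecans, glypicans and perlecan, by enzymes that start the chain, lengthen it and place sulfate groups along it. The sulfate pattern sets which chemokines, growth factors and clotting regulators the chain binds, and enzymes outside the cell can later trim it. Hyaluronan is a related sugar chain that carries no sulfate and no core protein; it is spun out at the plasma membrane by its synthases, bound by receptors such as Cd44, and cut by hyaluronidases. On the inner face of blood vessels these molecules form much of the glycocalyx, and in the vessel wall they are part of the matrix.

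Library totals ranged from 16509197 to 21149988 counts for LPS and from 17294955 to 25082714 for Vehicle, and 3 counts, the most that a count of 0 allows, equal 0.117 to 0.188 CPM (reads scaled to a common library size). Such limits cover counting error only. The marker genes go against the cell type label. Of 12 endothelial markers 3 had enough counts to be tested. Cldn5 was at 0 in all 6 libraries and Cdh5 reached at most 0.0944 CPM. Erg and Egfl7 had the highest levels of the list. Erg had 5.995, 5.94 and 4.48 CPM in LPS, against 9.38, 7.98 and 7.51 CPM in Vehicle. It was called lower (log2 fold change −0.60, edgeR adjusted p = 0.0205), but not without LPS 3, Vehicle 1 or Vehicle 2 (adjusted p up to 0.0848). Egfl7 had 3.30, 4.44 and 5.74 CPM in LPS, against 2.25, 2.35 and 4.26 CPM in Vehicle, and was not called (edgeR adjusted p = 0.141). The list summed to 10.5 to 13.3 CPM in LPS and 11.2 to 13.5 CPM in Vehicle libraries. All 8 fibroblast markers were tested and summed to 4108 to 5667 CPM in LPS and 6374 to 7569 CPM in Vehicle libraries, with 2 called higher and 3 lower, or 2 and 1 with the transcript-length offset described below. Pericyte markers (6) summed to 1358 to 1635 CPM in LPS and 1866 to 1981 CPM in Vehicle libraries, with none called higher and 3 lower, or 1 lower with that offset; over all tested genes 24.4% were called lower without an offset and 13.8% with it. Cspg4, a pericyte marker called lower without an offset, is also counted below among the other core proteins. Smooth muscle markers (8) summed to 464 to 583 CPM in LPS and 415 to 433 CPM in Vehicle libraries. Of the 5 tested, 1 was called higher and none lower, against 24.9% and 24.4% of all tested genes. Smtn was the 1 called (log2 fold change 0.50, edgeR adjusted p = 0.00569). Acta2, the most abundant, was not called (0.18, adjusted p = 0.194), and Myh11, Des and Myocd had too few counts to be tested. Mesothelial and epithelial markers (6) summed to 43.9 to 89.8 CPM in LPS and 25.4 to 31.7 CPM in Vehicle libraries. Krt19 made up nearly all of that last sum, with 43.3, 69.9 and 87.5 CPM in LPS, against 28.3, 24.0 and 30.9 CPM in Vehicle. It was called higher (log2 fold change 1.27, edgeR adjusted p = 0.00193). Upk3b was not called (log2 fold change −0.12, edgeR adjusted p = 0.847), and Msln, Epcam, Wt1 and Lrrn4 had too few counts to be tested. Macrophage markers (6) summed to 6.50 to 8.26 CPM in LPS and 5.52 to 6.74 CPM in Vehicle libraries, with Ptprc and Adgre1 at 0. The part of these shifts in the results below was not tested, and in bulk RNA fewer cells of a type cannot be told apart from less RNA per cell.

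Of the 36 tested genes, 8 (22.2%) rose under LPS, against 24.9% of all tested genes, and 17 (47.2%) fell, against 24.4% of all tested genes (edgeR quasi-likelihood test, Benjamini-Hochberg adjusted p below 0.05 over all genes). The risers were Sdc1, Sdc4, Gpc1, Dcn, Hs3st1, Has1, Has2 and Hyal2. The LPS and Vehicle libraries did not overlap for 29 of the 36 genes (80.6%), against 61.9% of all tested genes. The median log2 fold change was −0.19 over the 36 genes and −0.0031 over all tested genes. The direction was the same in all 3 isolations for 29 of the 36. This count was not made over all tested genes, so it has no share to be set against. With the isolation as a replicate block, 9 genes were called higher, against 25.5% of all tested genes, and 18 lower, against 25.5%.

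Fold changes in these libraries moved with transcript length, and this bears on the counts. The median log2 fold change was 0.73 in the tenth of tested genes with the shortest transcripts and −0.68 in the tenth with the longest. When the model held an offset that removes this trend, 11 of the 36 genes (30.6%) were called higher, against 21.8% of all tested genes, and 10 (27.8%) lower, against 13.8%. The 8 risers kept their calls with this offset, 10 of the 17 fallers kept theirs, Podxl, Ext1 and Cd44 became higher, and with it no gene was called in the opposite direction. With an offset for the gene length deposited in the table instead, 9 genes were higher, against 23.9% of all tested genes, and 9 lower, against 16.1%. Called without an offset and with either one were 6 risers, Sdc1, Gpc1, Dcn, Hs3st1, Has1 and Has2, and 7 fallers, Gpc4, Gpc6, Vcan, Ndst1, Hs6st2, Sulf2 and Hyal1. Below, "with the transcript-length offset" gives the log2 fold change and adjusted p from the first of these fits, and "with the deposited-length offset" from the second.

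**Figure D1:**
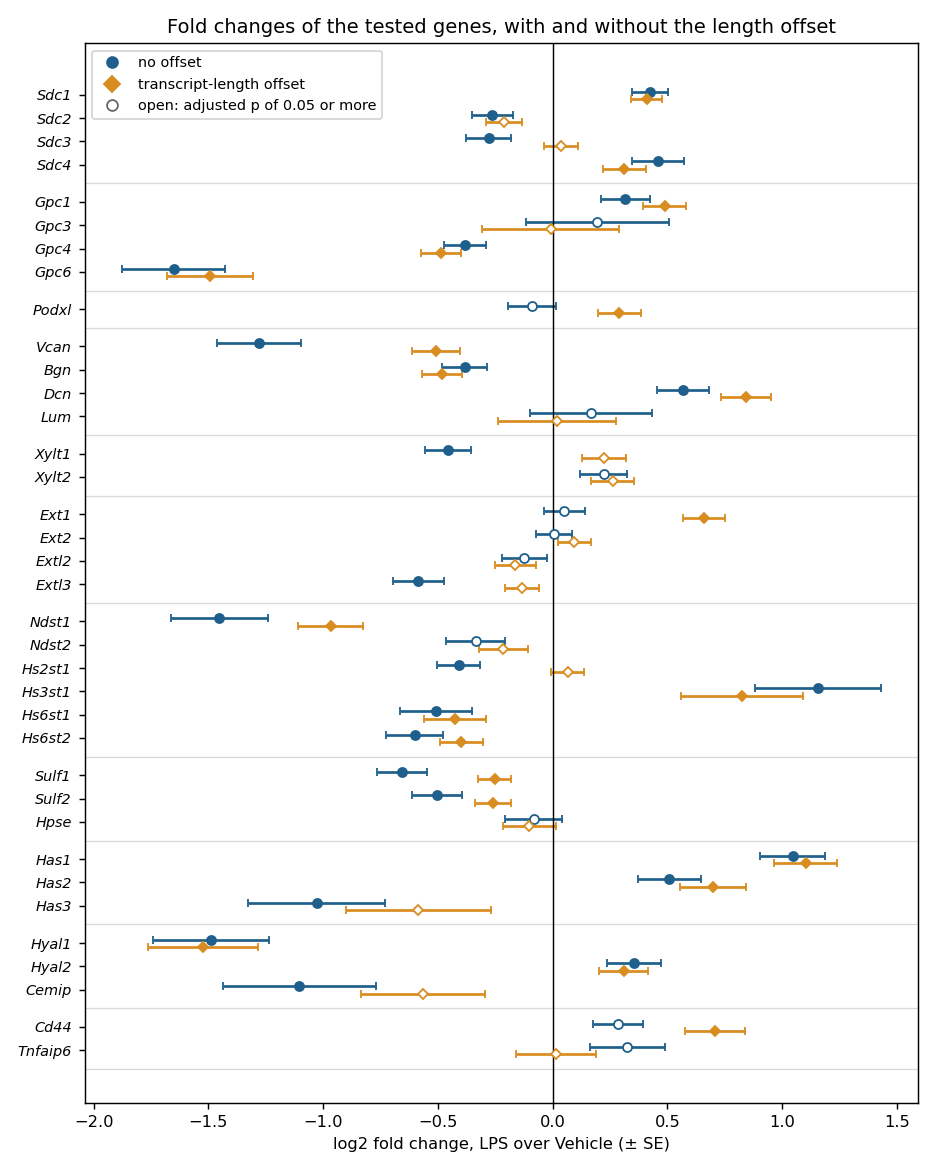
Log2 fold changes of LPS over Vehicle, with standard errors, for the 36 tested genes in order of role, without and with the transcript-length offset. Hs3st1 and Has1 lie farthest to the right, at 1.16 and 1.05 without the offset, and Gpc6, Hyal1, Ndst1 and Vcan farthest to the left, at −1.65, −1.49, −1.45 and −1.28.

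Promoters are shown for the pair of risers and the pair of fallers with the largest fold changes among the called genes for which the RefSeq table of promoters (GRCm38.p6) gave a sequence to print; 24 of the 37 genes had a window in that table. Each run is the 250 bases before the annotated start, 5′ to 3′ on the gene's strand. Capitals mark the motifs found by letter search on both strands, with positions counted back from the start.
Hs3st1 (chr5:39644632-39644881, minus strand): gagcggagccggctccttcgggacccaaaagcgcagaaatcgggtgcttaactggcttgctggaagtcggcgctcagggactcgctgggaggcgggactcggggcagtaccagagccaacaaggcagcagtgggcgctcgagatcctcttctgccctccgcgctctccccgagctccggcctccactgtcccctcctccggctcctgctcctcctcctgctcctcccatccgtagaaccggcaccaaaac
Has1 (chr17:17855189-17855438, minus strand): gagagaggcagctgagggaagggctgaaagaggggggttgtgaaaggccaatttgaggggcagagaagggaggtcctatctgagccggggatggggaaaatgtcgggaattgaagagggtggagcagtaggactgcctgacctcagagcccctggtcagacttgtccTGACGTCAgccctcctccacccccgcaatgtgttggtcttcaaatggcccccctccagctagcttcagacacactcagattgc
Hyal1 (chr9:107576700-107576949, plus strand): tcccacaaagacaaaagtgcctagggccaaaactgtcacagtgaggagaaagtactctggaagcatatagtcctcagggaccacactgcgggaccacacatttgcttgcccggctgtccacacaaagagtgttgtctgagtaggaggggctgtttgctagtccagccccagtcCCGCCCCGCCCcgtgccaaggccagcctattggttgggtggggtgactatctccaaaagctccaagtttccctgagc
Vcan (chr13:89742513-89742762, minus strand): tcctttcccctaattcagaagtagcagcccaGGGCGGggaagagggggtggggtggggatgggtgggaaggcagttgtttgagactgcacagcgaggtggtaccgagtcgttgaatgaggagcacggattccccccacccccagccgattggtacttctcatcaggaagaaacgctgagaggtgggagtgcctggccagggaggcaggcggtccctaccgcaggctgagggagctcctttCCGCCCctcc
The Has1 window held the CRE-type motif TGACGTCA at −83 to −76, which 1.55% of 32851 promoter windows hold. The GC box GGGCGG stood in the Hyal1 window at −77 to −72 and, overlapping it by 1 base, at −72 to −67. In the Vcan window it stood at −219 to −214 and −10 to −5. It is common, in 32.7% of all windows and for 18 of the 24 member genes with a window. The first value counts windows and the second counts genes with the motif in any of their windows. The Hs3st1 window held none of the motifs searched. The RefSeq starts that the Hs3st1, Has1 and Hyal1 windows precede lie inside those genes as the count table bounds them. The Hs3st1 window lies wholly inside its gene, and the Has1 and Hyal1 windows overlap theirs only near the start. The nuclear factor kappa B-type motif was found for 1 member gene, Hs6st2 (1.41% of all windows). The AP-1-type motif TGANTCA was found for Tnfaip6 (6.75%), and the TATA box TATAAA for Cemip, Hs6st2 and Sulf2 (12.4%). The CRE-type motif and the GC box were added to the search after the sequences were seen. A match is a run of letters, not a shown binding site.

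Of the 3 hyaluronan synthase genes, Has1 and Has2 rose under LPS and Has3 fell. Has1 (ENSMUSG00000003665, chr17:17843323-17855205 in GRCm38, minus strand), a synthase of hyaluronan at the plasma membrane, had 39.1, 44.8 and 51.2 CPM in LPS, against 18.4, 22.1 and 24.8 CPM in Vehicle. All 3 LPS libraries lay above all 3 Vehicle libraries, and within each isolation the LPS culture was higher (log2 fold change 1.05, SE 0.141, edgeR adjusted p = 0.00140). The log2 fold change with the transcript-length offset was 1.10 (edgeR adjusted p = 0.00104). Has2 (ENSMUSG00000022367, chr15:56665627-56694539 in GRCm38, minus strand), the synthase most studied in the vessel wall and in development, had 49.8, 48.7 and 65.0 CPM in LPS, against 33.3, 38.9 and 42.6 CPM in Vehicle. Its groups did not overlap either, and its fitted fold change was smaller than that of Has1 (log2 fold change 0.51, SE 0.139, edgeR adjusted p = 0.0133). The Has2 call ended when Vehicle 1, its lowest library, was left out (adjusted p = 0.0653).

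Has3, the other synthase of this family, was a low gene. Its level was 1.42, 1.19 and 1.71 CPM in LPS, against 2.02, 3.23 and 3.56 CPM in Vehicle, again without overlap (log2 fold change −1.03, SE 0.300, edgeR adjusted p = 0.0179). In the fit with the transcript-length offset it was −0.59 (edgeR adjusted p = 0.173). With the deposited-length offset it was −0.79 (edgeR adjusted p = 0.0639). Its call also ended without LPS 2, Vehicle 2 or Vehicle 3 (adjusted p up to 0.0793). The exons of Has3 share 352 bases with Chtf8 on the other strand, which averaged 84.9 CPM over the 6 libraries against 2.19 CPM for Has3. It is not known whether the counting used strand, so reads in the shared bases cannot be told apart. Set per kilobase of deposited gene length, the 3 synthases summed to 23.1 ± 3.41 CPM per kb in LPS and 14.3 ± 1.95 CPM per kb in Vehicle libraries (SD, n = 3 each; exact permutation p = 0.1, 2-sided, the smallest that 3 against 3 allows). Of that sum Has1 held 43.3% ± 2.26 in LPS and 33.6% ± 0.397 in Vehicle, Has2 55.7% ± 2.15 in LPS and 63.2% ± 0.834 in Vehicle, and Has3 0.978% ± 0.109 in LPS and 3.18% ± 0.509 in Vehicle libraries (exact permutation p = 0.1 for each share).

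The hyaluronidase genes moved in both directions: Hyal1 and Cemip fell and Hyal2 rose. Hyal1 (ENSMUSG00000010051, chr9:107576927-107581710 in GRCm38, plus strand), the lysosomal enzyme that breaks hyaluronan into short fragments, had 7.55, 4.63 and 3.58 CPM in LPS, against 17.0, 15.0 and 12.6 CPM in Vehicle. Every LPS library was below every Vehicle library, and the fall was one of the largest among the 36 genes (log2 fold change −1.49, SE 0.252, edgeR adjusted p = 0.00174). Adding the transcript-length offset gave a log2 fold change of −1.52 (edgeR adjusted p = 0.00184). The deposited-length offset gave −1.51 (edgeR adjusted p = 0.00170). Hyal1 exons share 1920 of their 3777 bases with Nat6 on the same strand, an acetyltransferase gene now known as Naa80. Nat6 had 19.6, 25.8 and 29.4 CPM in LPS, against 21.1, 20.4 and 22.0 CPM in Vehicle, and was not called (log2 fold change 0.24, edgeR adjusted p = 0.210). How the reads of the shared bases were assigned touches the Hyal1 level.

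Hyal2 (ENSMUSG00000010047, chr9:107567945-107572779 in GRCm38, plus strand), the surface-anchored enzyme that makes the first cut in long hyaluronan, had 53.6, 56.0 and 66.8 CPM in LPS, against 43.6, 42.7 and 51.6 CPM in Vehicle. The groups did not overlap and the gene rose by a small amount (log2 fold change 0.36, SE 0.118, edgeR adjusted p = 0.0315). The call held with the transcript-length offset (0.31, adjusted p = 0.0467) and ended with the deposited-length offset (0.26, adjusted p = 0.0754). It also ended without LPS 2, LPS 3, Vehicle 1 or Vehicle 2 (adjusted p up to 0.134). Cemip, a secreted protein needed for hyaluronan breakdown in fibroblasts of human skin, had 33.6, 29.7 and 10.9 CPM in LPS, against 55.8, 62.7 and 41.0 CPM in Vehicle. The LPS libraries lay below the Vehicle libraries, with LPS 3 lowest by far (log2 fold change −1.10, SE 0.335, edgeR adjusted p = 0.0211). The call ended with the transcript-length offset (−0.56, adjusted p = 0.130) and with the deposited-length offset (−0.57, adjusted p = 0.124), but Cemip was called lower with the transcript-length offset and replicate block together (−0.64, adjusted p = 0.00737). The call also ended in DESeq2 (adjusted p = 0.0515) and without Vehicle 1 or Vehicle 2 (adjusted p up to 0.0805).

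Cd44, the main cell-surface hyaluronan receptor, was one of the most abundant genes of the group. It had 729, 771 and 899 CPM in LPS, against 595, 671 and 703 CPM in Vehicle, with no overlap. It narrowly missed the call (log2 fold change 0.29, SE 0.110, edgeR adjusted p = 0.0545). It was called higher with the isolation as a replicate block (adjusted p = 0.0218), in DESeq2 (adjusted p = 0.0365), in limma-voom (adjusted p = 0.0498) and without LPS 1 (adjusted p = 0.00342). The same held with the transcript-length offset (0.71, adjusted p = 0.00302) and with the deposited-length offset (0.57, adjusted p = 0.00508). Tnfaip6, the secreted protein TSG-6 that links hyaluronan to heavy chains of inter-alpha-inhibitor, had 9.63, 8.01 and 8.06 CPM in LPS, against 7.69, 5.996 and 6.84 CPM in Vehicle. It was not called (log2 fold change 0.33, SE 0.163, edgeR adjusted p = 0.123).

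**Figure D2:**
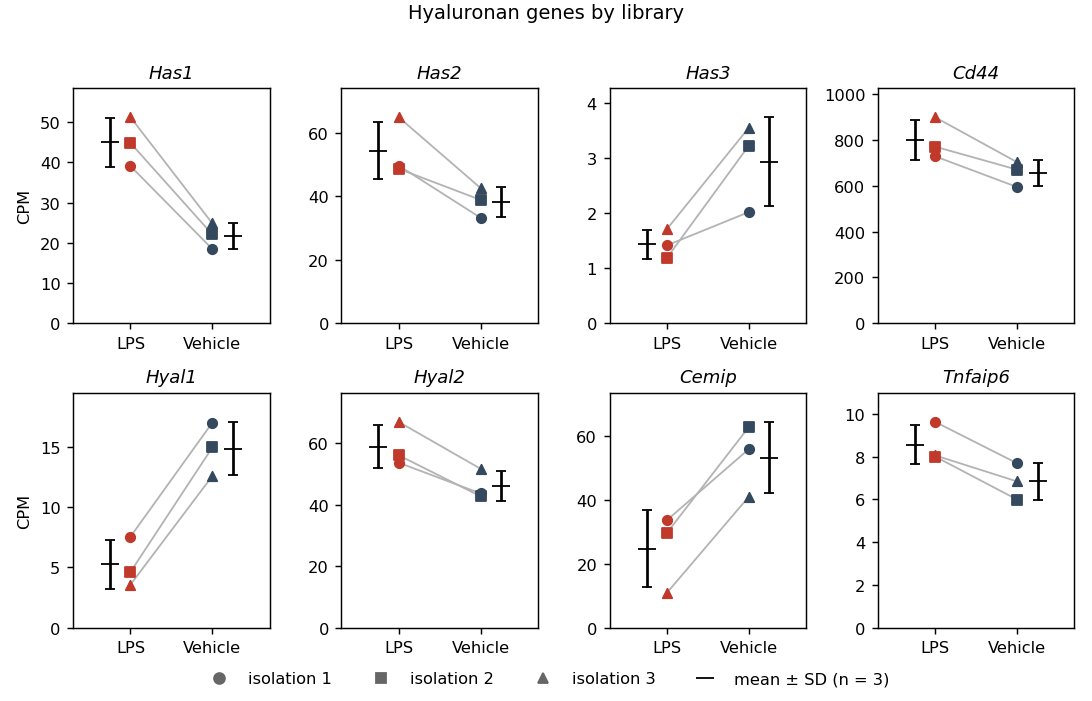
CPM per library of the 8 hyaluronan genes, LPS left of Vehicle in each panel, with a point for each isolation, a line joining its cultures, and the mean ± SD (n = 3). Has1 and Has2 are higher in all LPS libraries, while Has3, Hyal1 and Cemip are lower in all of them; Has1 averaged 45.1 CPM in LPS and 21.8 CPM in Vehicle libraries.

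Among the syndecans, transmembrane core proteins that carry heparan sulfate, Sdc1 and Sdc4 rose while Sdc2 and Sdc3 fell. Sdc4 (ENSMUSG00000017009, chr2:164424247-164443887 in GRCm38, minus strand), a coreceptor in focal adhesions, had 1036, 1214 and 1291 CPM in LPS, against 774, 873 and 929 CPM in Vehicle. The groups did not overlap (log2 fold change 0.46, SE 0.114, edgeR adjusted p = 0.00868), and in each isolation the LPS culture was the higher one. The call held with the transcript-length offset (0.31, adjusted p = 0.0243) but not with the deposited-length offset (0.25, adjusted p = 0.0555). It ended without Vehicle 1 (adjusted p = 0.0503). Sdc1, a syndecan whose ectodomain is shed from cells, had 295, 306 and 302 CPM in LPS, against 226, 216 and 231 CPM in Vehicle. The 3 values of each group lay close together and far from the other group (log2 fold change 0.42, SE 0.0790, edgeR adjusted p = 0.00246).

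Sdc2, a syndecan of mesenchymal cells and vessels, had 107, 102 and 99.3 CPM in LPS, against 135, 121 and 114 CPM in Vehicle. It fell by a small amount (log2 fold change −0.26, SE 0.0896, edgeR adjusted p = 0.0344). Sdc3, a syndecan best known from nerve tissue, had 425, 351 and 355 CPM in LPS, against 459, 445 and 469 CPM in Vehicle. It also fell by a small amount (log2 fold change −0.28, SE 0.0981, edgeR adjusted p = 0.0392). The libraries did not overlap for Sdc2; those of Sdc3 did not overlap either. Neither was called with the transcript-length offset (Sdc2 −0.21, adjusted p = 0.0580; Sdc3 0.04, adjusted p = 0.730, a turned sign), and only Sdc2 with the deposited-length offset (Sdc2 −0.32, adjusted p = 0.0120; Sdc3 −0.07, adjusted p = 0.502). With the transcript-length offset and replicate block together Sdc2 was called lower (−0.21, adjusted p = 0.0327). Leaving out LPS 2, LPS 3, Vehicle 1 or Vehicle 2 ended both calls, and leaving out Vehicle 3 that of Sdc3 (adjusted p up to 0.154 for Sdc2 and 0.173 for Sdc3).

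The 4 syndecans summed to 634.5 ± 45.1 CPM per kb in LPS and 507 ± 29.0 CPM per kb in Vehicle libraries (SD, n = 3 each; exact permutation p = 0.1). Sdc4 supplied 72.9% ± 3.02 of the sum in LPS and 66.4% ± 2.45 in Vehicle libraries, and Sdc3 10.01% ± 1.84 in LPS and 15.1% ± 0.814 in Vehicle libraries (exact permutation p = 0.1 for each share). The share of Sdc1 was 12.5% ± 0.719 in LPS and 11.6% ± 0.697 in Vehicle libraries (exact permutation p = 0.2).

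Glypicans, which hold heparan sulfate to the membrane by a lipid anchor, showed the largest fall of the whole group without a length offset; with either offset that of Hyal1 was larger. Gpc6 (ENSMUSG00000058571, chr14:116925315-117976544 in GRCm38, plus strand) had 49.0, 31.3 and 23.1 CPM in LPS, against 109, 117 and 99.6 CPM in Vehicle. The groups were far apart, LPS 3 being lowest and LPS 1 highest among the LPS libraries (log2 fold change −1.65, SE 0.224, edgeR adjusted p = 0.00141). The log2 fold change with the transcript-length offset was −1.49 (edgeR adjusted p = 0.00104). With the deposited-length offset it was −1.42 (edgeR adjusted p = 0.00135). Gpc4 had 64.0, 61.9 and 55.8 CPM in LPS, against 83.1, 79.2 and 74.7 CPM in Vehicle. Its groups did not overlap either, and its fitted fold change was smaller (log2 fold change −0.38, SE 0.0916, edgeR adjusted p = 0.00728), and the call held with the transcript-length offset (−0.49, adjusted p = 0.00261).

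Gpc1 (ENSMUSG00000034220, chr1:92831645-92860779 in GRCm38, plus strand), the glypican of vascular cells that is studied as a sensor of flow in the glycocalyx, rose. It had 198, 156 and 177 CPM in LPS, against 140.1, 133 and 154 CPM in Vehicle. All LPS libraries were above all Vehicle libraries, and the change was small beside that of Gpc6 (log2 fold change 0.32, SE 0.107, edgeR adjusted p = 0.0331). It was larger with the transcript-length offset (0.49, adjusted p = 0.00333), and the call ended without LPS 3, Vehicle 1 or Vehicle 2 (adjusted p up to 0.146). Gpc3, the X-linked glypican next to Gpc4, was low and variable, with 1.75, 3.50 and 2.47 CPM in LPS, against 2.30, 1.72 and 2.62 CPM in Vehicle. Its groups overlapped and it was not called (log2 fold change 0.19, SE 0.312, edgeR adjusted p = 0.633). The glypicans here summed to 63.5 ± 6.40 CPM per kb in LPS and 75.1 ± 1.09 CPM per kb in Vehicle libraries (exact permutation p = 0.1). Gpc1 held 54.1% ± 3.42 of the glypican sum per kilobase in LPS and 36.7% ± 2.91 in Vehicle libraries, and Gpc6 8.31% ± 2.38 in LPS and 22.5% ± 1.83 in Vehicle libraries (SD, n = 3 each, exact permutation p = 0.1 for each).

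Podxl, a sialomucin that is heavily glycosylated but is not a heparan sulfate core protein, had 34.8, 34.8 and 32.0 CPM in LPS, against 33.7, 39.9 and 34.5 CPM in Vehicle. It was not called (log2 fold change −0.09, SE 0.105, edgeR adjusted p = 0.505). The transcript-length offset turned the sign and made it higher (0.29, adjusted p = 0.0356), while the deposited-length offset left it uncalled (0.07, adjusted p = 0.582).

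**Figure D3:**
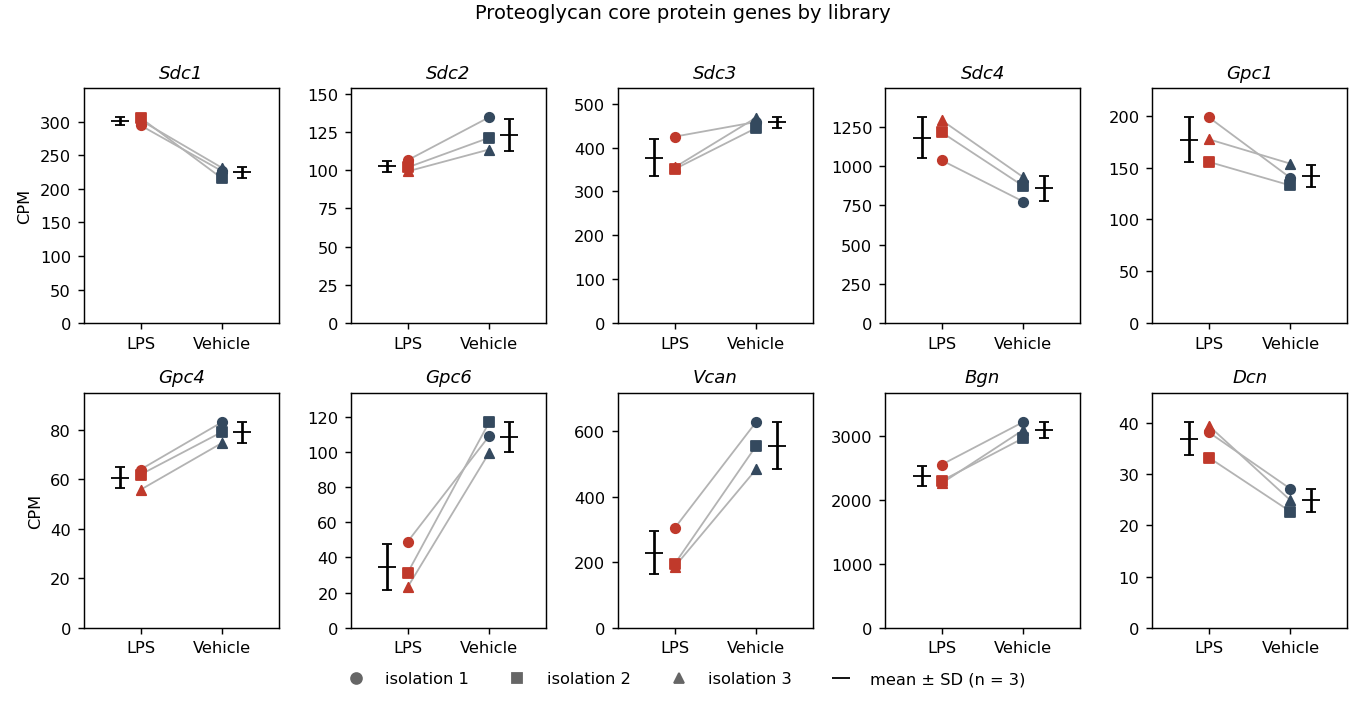
CPM per library of core protein genes, LPS left of Vehicle in each panel, with lines joining cultures of 1 isolation and the mean ± SD (n = 3). Gpc6 and Vcan show the largest fold differences, averaging 34.5 and 229 CPM in LPS and 109 and 556 CPM in Vehicle libraries, while Sdc1, Sdc4, Gpc1 and Dcn are higher in the LPS libraries.

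Of the matrix proteoglycan genes, Vcan and Bgn fell and Dcn rose. Vcan (ENSMUSG00000021614, chr13:89655312-89742509 in GRCm38, minus strand), versican, a large chondroitin sulfate proteoglycan that binds hyaluronan, had 304, 195 and 187 CPM in LPS, against 628, 555 and 484 CPM in Vehicle. Each LPS library was below each Vehicle library (log2 fold change −1.28, SE 0.184, edgeR adjusted p = 0.00144). Vcan has the longest transcript of the 36 genes, at 12427 bases. The fall was smaller with the transcript-length offset (−0.51, adjusted p = 0.00481) and with the deposited-length offset (−0.67, adjusted p = 0.00218), with both of which it was called.

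Bgn, biglycan, a small leucine-rich proteoglycan of the vessel wall, was by far the most abundant matrix proteoglycan. It had 2548, 2295 and 2258 CPM in LPS, against 3212, 2961 and 3088 CPM in Vehicle, without overlap, and fell (log2 fold change −0.38, SE 0.0983, edgeR adjusted p = 0.0101). The call held with the transcript-length offset (−0.48, adjusted p = 0.00269) but not with the deposited-length offset (−0.17, adjusted p = 0.132). It ended without LPS 2 (adjusted p = 0.0556). Dcn, decorin, a related small proteoglycan that binds collagen fibrils, rose, with 38.1, 33.2 and 39.4 CPM in LPS, against 27.1, 22.7 and 24.9 CPM in Vehicle. The groups did not overlap (log2 fold change 0.57, SE 0.113, edgeR adjusted p = 0.00316), and the transcript-length offset made the rise larger (0.84, adjusted p = 0.00120). Lum, lumican, the gene beside Dcn on chromosome 10, was low at 3.02, 3.07 and 5.34 CPM in LPS, against 3.82, 3.02 and 3.36 CPM in Vehicle. It was not called (log2 fold change 0.17, SE 0.267, edgeR adjusted p = 0.629). The 4 matrix genes summed to 411.8 ± 30.2 CPM per kb in LPS and 550.2 ± 24.0 CPM per kb in Vehicle libraries (exact permutation p = 0.1). Per kilobase Bgn held 94.3% ± 0.664 of the 4 matrix genes in LPS and 92.0% ± 0.750 in Vehicle libraries, Vcan 3.80% ± 0.791 in LPS and 6.98% ± 0.743 in Vehicle, and Dcn 1.54% ± 0.158 in LPS and 0.774% ± 0.0364 in Vehicle libraries (SD, n = 3 each, exact permutation p = 0.1 for each).

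Of the 6 tested genes that start and lengthen the chains, Xylt1 and Extl3 fell and 4 were not called. Xylt1, one of the xylosyltransferases that place the first sugar on the core protein, had 49.4, 40.2 and 44.6 CPM in LPS, against 58.8, 62.6 and 62.9 CPM in Vehicle. It fell without overlap (log2 fold change −0.46, SE 0.101, edgeR adjusted p = 0.00508), but the call ended and the sign turned with the transcript-length offset (0.22, adjusted p = 0.0943); with the deposited-length offset the change was −0.01, adjusted p = 0.961. With the transcript-length offset and the replicate block together Xylt1 was called higher (log2 fold change 0.22, edgeR adjusted p = 0.0354), so its direction depends on the length correction. Xylt2, the other xylosyltransferase, had 44.6, 45.9 and 46.9 CPM in LPS, against 43.7, 38.4 and 35.7 CPM in Vehicle. It was not called (log2 fold change 0.22, SE 0.103, edgeR adjusted p = 0.0973), and its groups did not overlap. It was called higher without LPS 1 (adjusted p = 0.0472) and with the transcript-length offset and replicate block together (0.26, adjusted p = 0.0453). Extl3, an exostosin-like enzyme that commits the chain to heparan sulfate, had 137, 114 and 104 CPM in LPS, against 189, 169.5 and 173 CPM in Vehicle. It fell, with every LPS library below every Vehicle library (log2 fold change −0.59, SE 0.110, edgeR adjusted p = 0.00254). The transcript-length offset ended the call (−0.13, adjusted p = 0.190) and the deposited-length offset did not (−0.37, adjusted p = 0.00716).

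The copolymerase subunits Ext1 and Ext2 were not called. Ext1, the most abundant gene of this step, had 615, 601 and 568 CPM in LPS, against 534, 597 and 592 CPM in Vehicle, and its groups overlapped (log2 fold change 0.05, SE 0.0888, edgeR adjusted p = 0.662). Ext2 had 179, 186 and 184 CPM in LPS, against 186, 173 and 188 CPM in Vehicle, again with overlap (log2 fold change 0.01, SE 0.0792, edgeR adjusted p = 0.952). Both had larger values with an offset: Ext1 was called higher with either one (0.66, adjusted p = 0.00136 with transcript length), and Ext2 with deposited length only (0.33, adjusted p = 0.0130). Extl2, an exostosin-like enzyme that can end a growing chain, had 49.6, 43.6 and 42.0 CPM in LPS, against 48.1, 48.4 and 50.7 CPM in Vehicle. It was not called (log2 fold change −0.12, SE 0.0976, edgeR adjusted p = 0.322).

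Of the 6 sulfation genes 4 fell, 1 rose and 1 was not called. Ndst1 (ENSMUSG00000054008, chr18:60685978-60713389 in GRCm38, minus strand), the N-deacetylase and N-sulfotransferase that opens the way for all later sulfation, had 82.7, 50.04 and 42.4 CPM in LPS, against 171, 164 and 145 CPM in Vehicle. The groups were well apart, with LPS 3 lowest and LPS 1 highest among the LPS libraries (log2 fold change −1.45, SE 0.211, edgeR adjusted p = 0.00144). In the fit with the transcript-length offset it was −0.97 (edgeR adjusted p = 0.00154). The deposited-length offset gave −1.25 (edgeR adjusted p = 0.00145). Ndst2, the related enzyme of mast cells that is also widely expressed, had 37.1, 28.0 and 27.4 CPM in LPS, against 38.8, 38.7 and 39.4 CPM in Vehicle. It just missed the call (log2 fold change −0.34, SE 0.128, edgeR adjusted p = 0.0520). Ndst2 was called lower with the replicate block (adjusted p = 0.0324), in DESeq2 (adjusted p = 0.0468), in limma-voom (adjusted p = 0.0453) and without LPS 1 (adjusted p = 0.000237).

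Hs3st1 (ENSMUSG00000051022, chr5:39613935-39755475 in GRCm38, minus strand), the 3-O-sulfotransferase that makes the antithrombin-binding site of heparan sulfate, was the 1 that rose, with a low level and, without a length offset, the largest fitted rise of the 36 genes; with either offset that of Has1 was larger. It had 2.83, 2.94 and 3.98 CPM in LPS, against 1.12, 1.62 and 1.60 CPM in Vehicle. All 3 LPS libraries were above all 3 Vehicle libraries, with LPS 3 highest (log2 fold change 1.16, SE 0.273, edgeR adjusted p = 0.00686). Adding the transcript-length offset gave a log2 fold change of 0.83 (edgeR adjusted p = 0.0340). With the deposited-length offset it was 0.90 (edgeR adjusted p = 0.0223). Within isolations the log2 ratio of LPS to Vehicle was 1.33, 0.86 and 1.31 in isolations 1, 2 and 3.

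The 2-O- and 6-O-sulfotransferases fell. Hs2st1, which sulfates iduronic acid, had 92.3, 78.4 and 78.2 CPM in LPS, against 106, 115 and 110.1 CPM in Vehicle (log2 fold change −0.41, SE 0.0936, edgeR adjusted p = 0.00595). Hs6st1 had 41.5, 35.0 and 26.7 CPM in LPS, against 44.8, 54.4 and 47.6 CPM in Vehicle (log2 fold change −0.51, SE 0.156, edgeR adjusted p = 0.0222). Hs6st2, like Hs6st1 a 6-O-sulfotransferase, had 192, 158 and 139 CPM in LPS, against 269.7, 246 and 226 CPM in Vehicle (log2 fold change −0.60, SE 0.124, edgeR adjusted p = 0.00371). None of the 3 had overlapping groups. The Hs2st1 call ended with the transcript-length offset (0.07, adjusted p = 0.512, a turned sign) and with the deposited-length offset (−0.04, adjusted p = 0.718). Hs6st1 held with the transcript-length offset (−0.42, adjusted p = 0.0316) but not with the deposited-length offset (−0.35, adjusted p = 0.0601). Its call also ended without LPS 2, Vehicle 2 or Vehicle 3 (adjusted p up to 0.0963). Hs6st2 held with transcript length (−0.40, adjusted p = 0.00878) and with deposited length (−0.26, adjusted p = 0.0401).

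The extracellular 6-O-endosulfatases, which strip sulfate from finished chains, fell as well. Sulf2 had 492, 409 and 377 CPM in LPS, against 614, 597 and 603 CPM in Vehicle, without overlap (log2 fold change −0.51, SE 0.109, edgeR adjusted p = 0.00445). Sulf1 had 417, 354 and 317 CPM in LPS, against 572, 588 and 556 CPM in Vehicle, also without overlap (log2 fold change −0.66, SE 0.109, edgeR adjusted p = 0.00167). Both falls were smaller with the transcript-length offset (Sulf1 −0.25, adjusted p = 0.0187; Sulf2 −0.26, adjusted p = 0.0248). With the deposited-length offset only Sulf2 was called (Sulf1 −0.14, adjusted p = 0.158; Sulf2 −0.31, adjusted p = 0.0152). Sulf2 shares 154 exon bases with Ncoa3 on the other strand, a gene of 41.1 CPM on average against 515 CPM for Sulf2. Hpse, heparanase, which cuts the chains themselves, had 26.01, 24.8 and 20.8 CPM in LPS, against 27.9, 24.0 and 23.9 CPM in Vehicle. It was not called (log2 fold change −0.08, SE 0.124, edgeR adjusted p = 0.613).

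**Figure D4:**
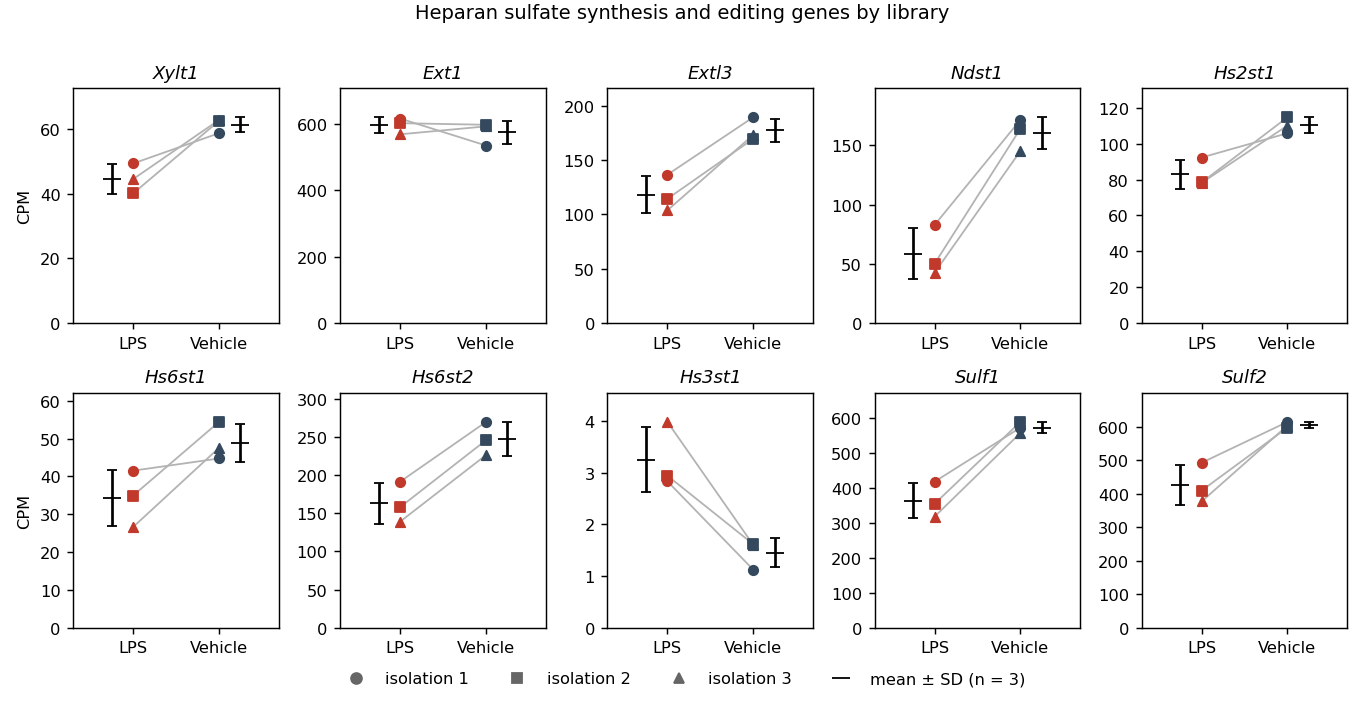
CPM per library of 10 genes that start, lengthen, sulfate and trim heparan sulfate chains, LPS left of Vehicle in each panel, with lines joining cultures of 1 isolation and the mean ± SD (n = 3). Ndst1 averaged 58.4 CPM in LPS and 160 CPM in Vehicle libraries, and Hs3st1 3.25 CPM in LPS and 1.45 CPM in Vehicle libraries.

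Set per kilobase of deposited gene length, Sdc4, Bgn and Cd44 had the highest levels in LPS libraries, at 463.5 ± 51.4, 388 ± 25.8 and 118 ± 13.1 CPM per kb, against 337 ± 30.9, 506 ± 20.6 and 96.8 ± 8.23 CPM per kb in Vehicle libraries (SD, n = 3 each). Bgn was first in Vehicle libraries, where Sulf2 ranked after Bgn and Sdc4 at 103 ± 1.45 CPM per kb; 5 genes ranked above it in LPS libraries. In LPS libraries Sdc1, Ext1 and Sulf2, at 79.0 ± 1.51, 73.6 ± 3.00 and 72.5 ± 10.1 CPM per kb, are neighbours in this order. Ext1 and Sulf2 do not differ there beyond their spread. The order depends on the length used: per kilobase of the longest annotated transcript Bgn led in both groups, at 888 CPM per kb in LPS and 1158 CPM per kb in Vehicle libraries, and Sdc4 had 480.1 CPM per kb in LPS and 349 CPM per kb in Vehicle libraries.

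Values within isolations follow. The median log2 ratio of LPS to Vehicle over the 17 genes called lower was −0.46 in isolation 1, −0.64 in isolation 2 and −0.74 in isolation 3, and that over the 8 called higher was 0.50, 0.49 and 0.54; the genes were called on these same libraries, so these medians only describe them. Single libraries mattered for the count of risers: without Vehicle 1 it was 4, and Sdc4, Gpc1, Has2 and Hyal2 lost their calls. Over all genes the higher calls without Vehicle 1 were 2669 of 14996, against 3616 of 14508 with all 6 libraries. With both libraries of isolation 2 left out, which leaves 2 against 2, edgeR called 0 of the 36 genes in either direction. Over all 14763 genes tested in that fit it called 8 higher and 0 lower. At an unadjusted p below 0.05, 6 of the 36 were higher and 11 lower, against 2587 and 2469 over all genes. For the same 4 libraries DESeq2 called 3 of the 36 higher and 7 lower, against 1543 and 1259 over all genes. The edgeR fit with the replicate block called 4 higher and 9 lower, against 2322 and 2296 over all genes. Without isolation 3 the calls of Sdc2, Sdc3, Gpc1, Bgn, Hs6st1, Has3 and Hyal2 ended, and without isolation 1 that of Gpc1.

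The 17 fallers had longer transcripts than the risers, with a median of 4973 bases (range 2651 to 12427) against 3349 bases (range 1686 to 4692) for the 8 risers and 3442 bases for the 11 not called. Across the 36 genes log2 fold change and log2 transcript length correlated at r = −0.50, against −0.47 across the 14502 tested genes with a length; these are correlations across genes measured in the same 6 libraries, and genes are not independent replicates. With the transcript-length offset the median log2 fold change of the 36 genes was 0.004, against 0.0398 over all tested genes, and r across the 36 was −0.10. The cause of the trend with length was not tested.

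**Figure D5:**
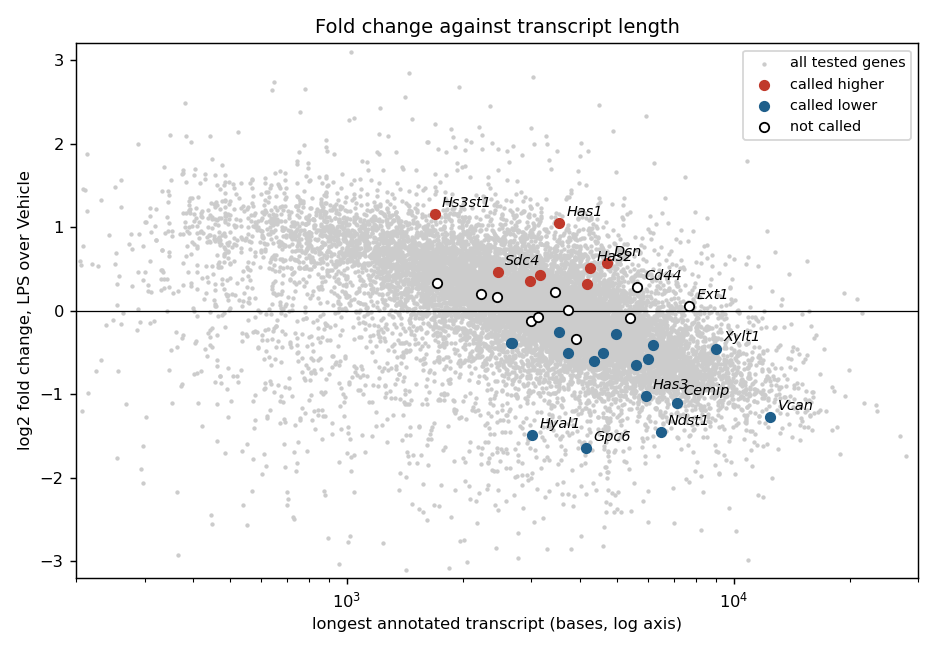
Log2 fold change of LPS over Vehicle against transcript length (log axis) for all tested genes, with the 36 genes of the group marked by call and 95 of 14502 genes outside the axes. Fold changes slope down with length; Has1 and Hs3st1 lie high, at 1.05 and 1.16, and Hyal1 and Gpc6 lie low among genes of like length, at −1.49 and −1.65.

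Other genes of the same pathways were counted from a list of 96 names, of which 95 were in the count table and 74 were tested. The list was made with results of these libraries known. Of the 74, 11 (14.9%) rose, 25 (33.8%) fell and 38 were not called, against the 24.9% and 24.4% of all tested genes given above. With the transcript-length offset 11 (14.9%) rose and 19 (25.7%) fell, against 21.8% and 13.8% of all tested genes. Without LPS 2 the counts were 7 higher and 16 lower of 76 tested, against 2654 and 2491 of 15033 over all genes. Without Vehicle 1, 7 of 77 were higher, against 2669 of 14996 over all genes. These shares of all tested genes, without and with the offset, are also the ones to set beside the smaller lists below. All 5 enzymes of the linkage region, the short sugar bridge between core protein and chain, were called, 3 higher and 2 lower; with the transcript-length offset 2 were higher and 1 lower. B4galt7 lost its call in the blocked fit (adjusted p = 0.0552), with either length offset (0.08, adjusted p = 0.511 for transcript length; 0.14, adjusted p = 0.274 for deposited length) and without LPS 2, LPS 3 or any 1 of the Vehicle libraries. Fam20b lost its call with the transcript-length offset (−0.22, adjusted p = 0.126), with the deposited-length offset (−0.07, adjusted p = 0.601) and without LPS 2, Vehicle 1 or Vehicle 2, and was called lower with the transcript-length offset and replicate block together (−0.22, adjusted p = 0.0387). B3gat3, which completes the bridge, had 55.9 ± 6.52 CPM in LPS and 35.3 ± 3.96 CPM in Vehicle libraries (log2 fold change 0.66, SE 0.121, edgeR adjusted p = 0.00223; 0.31, adjusted p = 0.0299 with the transcript-length offset). Pxylp1, which removes a phosphate from its xylose, had 37.7 ± 3.54 CPM in LPS and 57.2 ± 3.35 CPM in Vehicle libraries (log2 fold change −0.60, SE 0.103, edgeR adjusted p = 0.00182).

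Of 4 other tested genes that modify heparan sulfate, none rose and 2 fell, neither of them called with the transcript-length offset. Glce, the epimerase that makes iduronic acid, had 23.2 ± 5.59 CPM in LPS and 32.4 ± 2.36 CPM in Vehicle libraries (log2 fold change −0.48, SE 0.160, edgeR adjusted p = 0.0318; −0.19, adjusted p = 0.273 with that offset). Ndst3, a low gene related to Ndst1, had 1.45 ± 0.339 CPM in LPS and 2.56 ± 0.501 CPM in Vehicle libraries (log2 fold change −0.82, SE 0.291, edgeR adjusted p = 0.0406; −0.42, adjusted p = 0.307 with that offset). Their calls also ended without LPS 2, Vehicle 1, Vehicle 2 or Vehicle 3, and that of Glce without LPS 3 (adjusted p up to 0.131 for Glce and 0.162 for Ndst3). Among 14 genes that supply sugar nucleotides and sulfate, 5 rose and 3 fell, or 5 and 4 with the transcript-length offset. Gfpt1, the first enzyme of the hexosamine route to the amino sugars of the chains, had 122 ± 18.9 CPM in LPS and 217 ± 11.3 CPM in Vehicle libraries (log2 fold change −0.83, SE 0.114, edgeR adjusted p = 0.00143; −0.36, adjusted p = 0.00381 with the transcript-length offset). Slc26a2, a sulfate transporter, had 18.1 ± 4.16 CPM in LPS and 34.5 ± 1.45 CPM in Vehicle libraries (log2 fold change −0.93, SE 0.157, edgeR adjusted p = 0.00174; −0.33, adjusted p = 0.0369 with that offset).

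Of 15 tested genes of chondroitin and dermatan sulfate synthesis 1 rose and 5 fell, or 1 and 2 with the transcript-length offset. Dsel, a relative of dermatan sulfate epimerase, had 33.2 ± 5.14 CPM in LPS and 62.2 ± 2.75 CPM in Vehicle libraries (log2 fold change −0.90, SE 0.120, edgeR adjusted p = 0.00139; −0.48, adjusted p = 0.00222 with the transcript-length offset). Chpf2, a chondroitin polymerising factor, had 65.6 ± 16.1 CPM in LPS and 105 ± 9.68 CPM in Vehicle libraries (log2 fold change −0.67, SE 0.157, edgeR adjusted p = 0.00655; −0.31, adjusted p = 0.0503 with that offset). Of 12 lysosomal enzymes that take glycosaminoglycans apart, 1 rose and 4 fell, or none and 6 with that offset. Arsb, arylsulfatase B, had 10.9 ± 7.04 CPM in LPS and 29.1 ± 2.70 CPM in Vehicle libraries (log2 fold change −1.40, SE 0.359, edgeR adjusted p = 0.0101). Ids, iduronate sulfatase, had 41.5 ± 9.88 CPM in LPS and 86.3 ± 7.14 CPM in Vehicle libraries (log2 fold change −1.05, SE 0.154, edgeR adjusted p = 0.00144).

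Of 8 other tested hyaluronan genes none rose and 2 fell, and with the transcript-length offset 1 rose and 1 fell. Itih5, a heavy chain gene of the inter-alpha-inhibitor family, had 16.8 ± 5.38 CPM in LPS and 28.3 ± 5.84 CPM in Vehicle libraries (log2 fold change −0.75, SE 0.231, edgeR adjusted p = 0.0225; −0.15, adjusted p = 0.530 with the transcript-length offset). Tmem2, described as a surface hyaluronidase, had 38.5 ± 8.69 CPM in LPS and 57.1 ± 2.85 CPM in Vehicle libraries (log2 fold change −0.57, SE 0.147, edgeR adjusted p = 0.0107; −0.05, adjusted p = 0.737 with that offset). The Itih5 call also ended without LPS 2, Vehicle 1 or Vehicle 2 (adjusted p up to 0.0985). Of 16 other tested core proteins 1 rose and 7 fell, or 2 and 5 with the transcript-length offset. Gpc2, a glypican known from developing nerve tissue, had 0.845 ± 0.299 CPM in LPS and 2.36 ± 0.560 CPM in Vehicle libraries (log2 fold change −1.46, SE 0.357, edgeR adjusted p = 0.00816). Hspg2, perlecan of the basement membrane, had 1554 ± 250.3 CPM in LPS and 3453 ± 329 CPM in Vehicle libraries (log2 fold change −1.15, SE 0.136, edgeR adjusted p = 0.00114; −0.34, adjusted p = 0.00768 with the transcript-length offset).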

How the data were processed

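RNA levels were measured by paired-end sequencing of total RNA in 3 LPS and 3 Vehicle libraries; per the labels' protocols, RNA was extracted with TRIzol. Per the submitters' processing notes, HISAT2 was the aligner and GRCm38 (mm10) the genome. Not given in the sources used here are the tool that counted reads, its use of strand and its annotation. The table as deposited holds raw read counts per gene, not normalized by the authors, and the length of each gene, per the file headers. Columns that name LPS were taken as LPS, and the columns of the same isolations without it as Vehicle, by elimination. Of the gene IDs, 99.932% were in GENCODE M21, and 98.196% had the same coordinates there.

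Counts were tested with edgeR 4.0.16 in R 4.3.3 (TMM, filterByExpr by group, 2-sided quasi-likelihood F-test, Benjamini-Hochberg over 14508 genes, called below 0.05), after a test on simulated data. CPM use TMM-scaled totals, and the SE of a log2 fold change is its size over the square root of F. The length offsets entered the same model: for each library, log2 deviations from gene means were fitted by a natural spline (5 degrees of freedom) over log2 transcript length (the longest in GENCODE M21) or log2 deposited length. The labels state that libraries of 1 number share a cell isolation, which pairs them; deviations from group means correlated at 0.0958, −0.045 and 0.206 in isolations 1, 2 and 3, across genes, which are not independent. The unpaired fit is the main one and the isolation as a replicate block an alternative. Other alternatives were DESeq2 1.42.0, limma-voom (limma 3.58.1), other size factors and filters, a 0.01 threshold, and leaving out each library or isolation. Shares and sums were compared by exact permutation between the groups, without the pairing by isolation. Shares within a family add up to a whole, so their p-values are not independent of each other.

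The genes, the pathway lists, the marker lists and the rules were chosen with earlier results of these data known. All 37 genes are accounted for; of each pathway list the 2 called genes with the largest fold change are named.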

Additional observations from a re-analysis of the deposited data

How the results depend on the processing

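The directions of the 25 called genes held under other size factors, other filters, DESeq2, limma-voom and the replicate block; turns of direction came with the length offsets, and among genes that were not called also with library sizes alone, without the filter and with libraries left out. With the replicate block 9 genes were higher and 18 lower. The transcript-length offset left 10 genes lower, against 13.8% of all tested genes, and the deposited-length offset 9, against 16.1%. The transcript-length offset with the replicate block gave 13 higher and 12 lower, against 3470 and 2269 of 14508 over all genes. At a threshold of 0.01, 5 were higher and 11 lower, against 2309 and 2223 of 14508 over all genes. With 1 library or 1 isolation left out, the counts ranged from 0 to 10 higher and from 0 to 18 lower, with the 0 in both cases without isolation 2 (6 higher and 11 lower at an unadjusted p below 0.05). Fits without isolation 2 that were chosen after seeing the data called 3 higher and 7 lower (DESeq2) and 4 higher and 9 lower (edgeR with the replicate block).

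For the other pathway genes, the counts ranged from 0 to 15 higher and from 0 to 32 lower with libraries or isolations left out (without isolation 2, 7 and 15 at an unadjusted p below 0.05). They were 7 and 14 at a threshold of 0.01, 2 and 9 in DESeq2 without isolation 2, and 4 and 18 with the replicate block without isolation 2. Over all genes, 3616 were called higher and 3534 lower. With libraries or isolations left out the counts ranged from 8 to 4362 higher and from 0 to 4463 lower (without isolation 2, 2587 and 2469 at an unadjusted p below 0.05). They were 2309 and 2223 at 0.01, 1543 and 1259 in DESeq2 without isolation 2, and 2322 and 2296 with the replicate block without isolation 2. The lower calls were 2001 with the transcript-length offset, 2339 with the deposited-length offset and 2269 with the transcript-length offset and the replicate block.

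The median log2 fold change of the 36 genes, −0.19, was −0.27 with library sizes alone, 0.004 with the transcript-length offset, −0.065 with the deposited-length offset, and −0.015 and −0.078 with these offsets and the replicate block. With libraries left out it ranged from −0.25 to −0.16. Direction turned, with transcript length and with transcript length plus block, for Sdc3 (0.037 and 0.037), Podxl (0.291 and 0.295), Xylt1 (0.22 and 0.22), Hs2st1 (0.065 and 0.067) and Gpc3 (−0.008 and −0.023), and with the block also for Lum (−0.007). With deposited length and with deposited length plus block it turned for Podxl (0.071 and 0.075), Lum (−0.057 and −0.083) and Tnfaip6 (−0.008 and −0.021), and with the block for Gpc3 (−0.007). Library sizes alone turned Ext1 (−0.021) and Ext2 (−0.068), and no filter turned Ext2 (−0.008). Without isolation 2, DESeq2 and the blocked fit turned Gpc3 (−0.22 and −0.23) and Ext2 (−0.034 and −0.041). Leaving libraries out gave ranges of −0.23 to 0.42 for Gpc3, −0.16 to 0.39 for Lum, −0.035 to 0.109 for Ext1, −0.041 to 0.03 for Ext2 and −0.155 to 0.014 for Hpse. The causes of these turns were not tested.

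Hs3st1, Has3, Gpc3, Lum and Gpc2 were measured at few CPM in both groups and had wide errors. Wide errors were not confined to low genes. Cemip, at 24.7 CPM in LPS and 53.2 CPM in Vehicle libraries on average, had an SE of 0.335, against 0.300 for Has3. Reads shared by overlapping genes, as for Hyal1 with Nat6 and Has3 with Chtf8, limit those values at any depth.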
